A study of Arabidopsis thaliana with 9 samples.

Results

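The BT genes of Arabidopsis thaliana encode 5 scaffold proteins, BT1 (AT5G63160), BT2 (AT3G48360), BT3 (AT1G05690), BT4 (AT5G67480) and BT5 (AT4G37610), and all 5 were found by locus ID among the 32833 genes of the count table. They were chosen by the measured level of BT2, already known to be high in both TINY lines, so the levels of the family in the 3 genotypes are given below as a description, without p-values. The samples were whole rosettes of plants 4 weeks old, grown in days of 16 h of light, with 3 libraries per genotype. TINYOE plants carry the construct that the labels name BES1P::TINYOE, whose name joins BES1P, by its spelling the BES1 promoter, to the AP2/ERF transcription factor TINY. tiny124 plants have the genotype tiny1tiny2tiny4, and WT plants carry neither. The labels give neither the number of independent transgenic lines, nor the plants behind a replicate, nor the hour of harvest, so the spread between replicates may be technical.

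A BT protein joins a BTB domain, which binds the CUL3 subunit of ubiquitin ligases, to a TAZ zinc finger and a calmodulin-binding tail, a combination known from plants. BT proteins also bind the bromodomain proteins BET9 and BET10. BT2, the best studied member, is known as a target of the telomerase activator TAC1, is induced by nitrate, is repressed by sugars and follows the daily cycle with its peak in darkness, and BT1 and BT2 restrain high-affinity nitrate uptake genes when nitrate is scarce. Members act in part redundantly in gametophyte development, and BT4 has been tied to defence against pathogens.

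Library totals ran from 4917868 to 6070778 counts. All 5 rosette leaf markers were abundant, with a summed level of 13800 to 14600 CPM in TINYOE, 17800 to 18800 in tiny124 and 17800 to 21500 in WT (CPM, the usual depth-scaled tag counts, here with TMM-scaled library sizes). The 6 root markers summed to 33.6 to 51.9 CPM in TINYOE, 65 to 73.2 in tiny124 and 31.3 to 43.6 in WT, and the 6 flower markers to 30.5 to 64.2, 27 to 30.7 and 16.7 to 30.4 CPM. EXPA7 and COBL9, which mark root hairs, had at most 2 counts in any library, and WER at most 6. The other root markers had counts in every library. PYK10 stood at 8.23 to 51.2 CPM, SHR at 13.8 to 18.8 and SCR at 3.42 to 10.9. The part of these marker differences in the results was not tested. TINY (AT5G25810) had 33, 35 and 27 counts in TINYOE, 3, 5 and 4 in tiny124 and 20, 18 and 25 in WT. TINY2 (AT5G11590) had 0 to 2 counts in TINYOE, 0 or 1 in tiny124 and 5 to 11 in WT. The gene behind tiny4 was not looked up, so the tiny124 label is checked only in part. A tag near the 3′ end would miss a transgene with another 3′ end, so these counts do not check the TINYOE label. WT replicate 2 stood apart for BT2, and the log2 fold changes of BT2 against WT are given with and without it.

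BT2 was the member with the widest range. It had 2435, 2488 and 2470 counts in TINYOE, 1036, 1180 and 1390 in tiny124 and 89, 193 and 87 in WT. As CPM these were 401, 436 and 422 in TINYOE, 195, 195 and 252 in tiny124 and 16.9, 40.9 and 15.9 in WT. The 3 genotypes formed separate steps, with every TINYOE library above every tiny124 library and every tiny124 library above every WT library. Within WT, replicate 2 lay 1.30 log2 units above the mean of the other 2 libraries, a gap reached by 1.33% of all tested genes. The coefficient of variation of BT2 was 4.22% in TINYOE, 15.4% in tiny124 and 57.5% in WT, and 4.08% in WT without replicate 2. Among the tested genes of each library, ranked by CPM, BT2 stood at the 98.1 to 98.3 percentile in TINYOE, the 95.6 to 96.6 in tiny124 and the 60.3 to 80.7 in WT. The 80.7 was that of WT replicate 2, and the other WT libraries stood at 61.7 and 60.3.

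BT1, the member that acts with BT2 on nitrate uptake, showed the same 3 steps on a smaller scale. It stood at 275, 339 and 338 CPM in TINYOE, 144, 136 and 220 in tiny124 and 47.8, 65.6 and 41.4 in WT. Its lowest TINYOE library was above its highest tiny124 library, and its lowest tiny124 library above its highest WT library. tiny124 replicate 3 was the highest tiny124 library for both BT1 and BT2, and WT replicate 2 the highest WT library for both.

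BT4 and BT5 were higher in both lines than in WT but lay together in the lines. BT4 stood at 50.4, 60.5 and 41.5 CPM in TINYOE, 55, 59.7 and 47.6 in tiny124 and 17.8, 29.4 and 22 in WT. BT5 stood at 42.2, 50.5 and 47.5 CPM in TINYOE, 52.2, 44.5 and 55.6 in tiny124 and 15.4, 14 and 10.1 in WT. For both genes the TINYOE and tiny124 ranges overlapped, and every library of either line was above every WT library. WT replicate 2 was the highest WT library for BT4, 0.56 log2 units above the mean of the others, and lay between them for BT5.

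BT3 was low everywhere and did not separate the genotypes. It had 33, 38 and 23 counts in TINYOE, 25, 19 and 20 in tiny124 and 34, 19 and 22 in WT, or 3.93 to 6.66, 3.14 to 4.71 and 4.02 to 6.46 CPM. All 3 ranges overlapped. With counts of this order, the 95% intervals of its log2 difference from WT were wide. They ran from -0.496 to 0.772 in TINYOE and from -1.01 to 0.318 in tiny124, so differences within these limits could be missed for BT3.

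**Figure D1:**
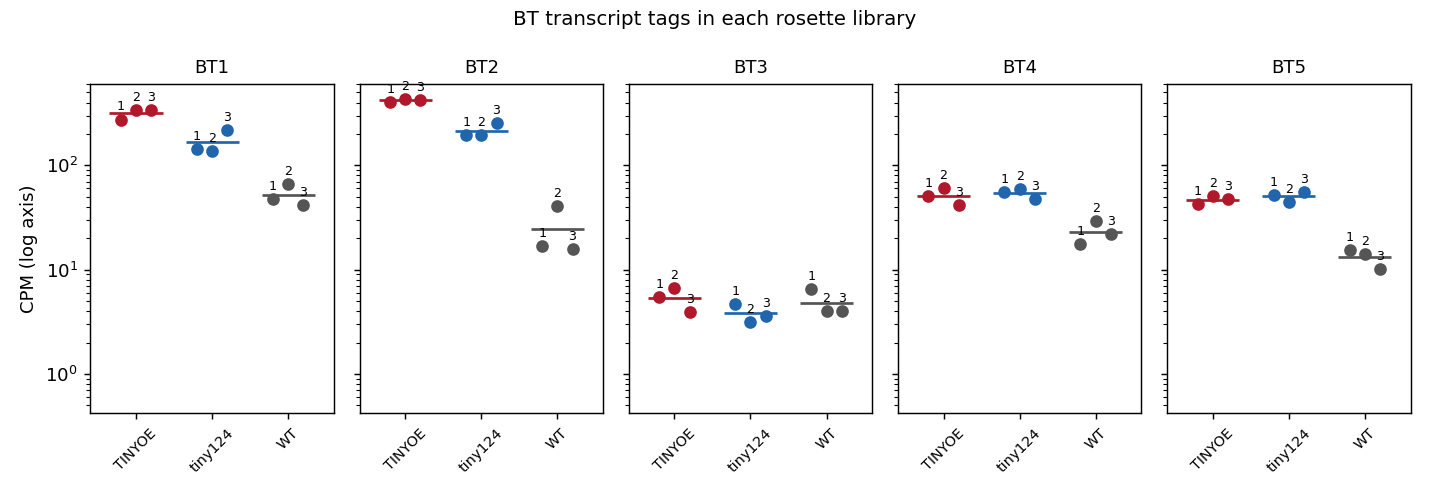
CPM of each BT gene in every library on a log axis, for TINYOE, tiny124 and WT, where points are libraries numbered by replicate and lines are means. BT1 and BT2 form 3 steps, BT4 and BT5 are level in the lines and lower in WT (means of 50.8, 54.1 and 23.1 CPM for BT4), and the BT3 ranges overlap.

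The order of the members differed between the lines and WT. The kit takes 1 tag near the 3′ end of a transcript, so levels in CPM are not scaled by transcript length, although the ease of priming may differ from gene to gene. BT2 was above BT1 in each of the 6 libraries of the lines and below BT1 in each WT library. In TINYOE the ranges of BT2 and BT1 did not overlap, at 401 to 436 and 275 to 339 CPM, whereas in tiny124 they did, at 195 to 252 and 136 to 220 CPM. BT4 and BT5 followed and did not differ beyond their spread in either line, and BT3 was last. In WT the order of the mean levels was BT1, BT2, BT4, BT5 and BT3. There BT2 at 15.9 to 40.9 CPM overlapped BT4 at 17.8 to 29.4 CPM, while BT4 was above BT5 in every library. Among the WT libraries BT2 stood above BT4 only in replicate 2, and without that library BT2 averaged 16.4 CPM and BT4 19.9 CPM, which turns their order.

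Summed over the family, tags reached 774, 893 and 853 CPM in TINYOE, 451, 438 and 579 in tiny124 and 104, 154 and 93.5 in WT. BT2 made up 48.9% to 51.8% of the family's tags in TINYOE, 43.3% to 44.5% in tiny124 and 16.2% to 26.5% in WT. Without WT replicate 2, which also held the highest WT total, the WT shares of BT2 were 16.2% and 17.1%. The share of BT1 was 35.6% to 39.7% in TINYOE, 31% to 38% in tiny124 and 42.6% to 45.8% in WT. BT4 contributed 4.86% to 6.77% in TINYOE, 8.22% to 13.6% in tiny124 and 17.1% to 23.5% in WT. These shares are parts of 1 sum, so a larger share of BT2 lowers the others by arithmetic.

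**Figure D2:**
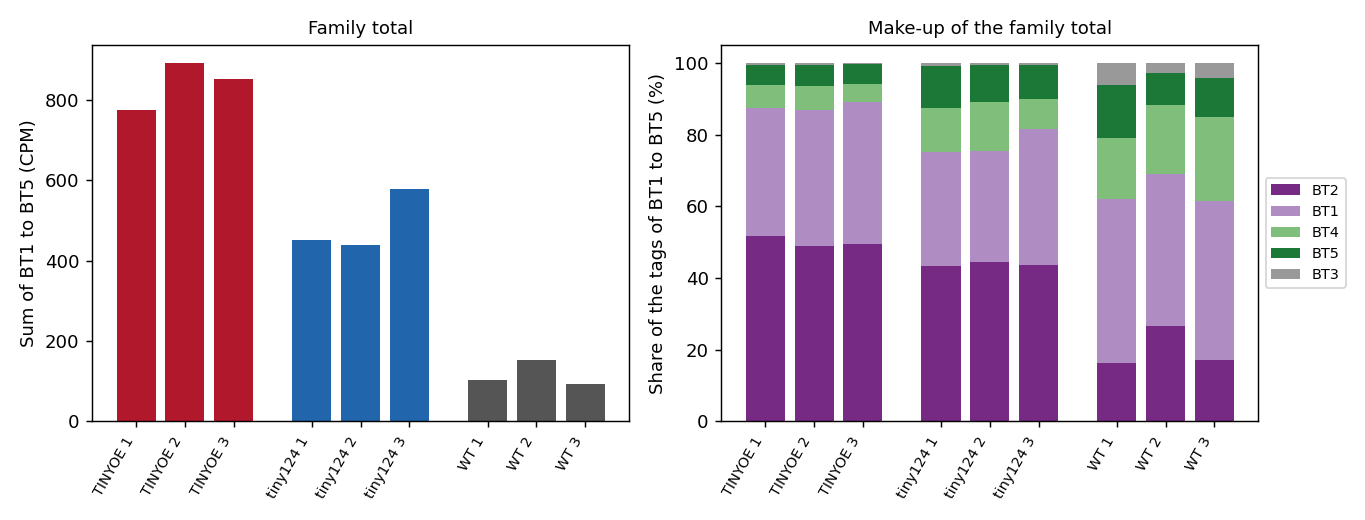
Left, the sum of BT1 to BT5 in CPM in each library of TINYOE, tiny124 and WT; right, the share of each member in that sum in percent. The family total is 774 to 893 CPM in TINYOE and 93.5 to 154 in WT, and BT2 takes 48.9% to 51.8% of it in TINYOE against 16.2% to 26.5% in WT. The upper ends in WT, 154 CPM and 26.5%, are those of replicate 2.

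TINYOE was compared with WT to describe the family under the TINY construct. In this comparison 4 of the 5 members, BT1, BT2, BT4 and BT5, had every TINYOE library above every WT library, a pattern shown in the higher direction by 16.2% of all tested genes. Because the members were chosen with this contrast in view, nothing is read from that count. Fitted across all genes, the log2 fold change of BT2 was 4.10 ± 0.295 (± is the standard error), a 17.2-fold difference and the fifth highest of 16434 tested genes. Standard errors here and below take the relative spread of a gene as equal in the 3 genotypes. For BT2 the SD of log2 CPM was 0.0611 in TINYOE, 0.214 in tiny124 and 0.75 in WT, so its errors against WT may be too small. BT1 stood at 2.62 ± 0.223 (6.16-fold), BT5 at 1.83 ± 0.197 (3.55-fold) and BT4 at 1.14 ± 0.209 (2.2-fold). BT3 stood at 0.14 ± 0.299. Without WT replicate 2 the value of BT2 was 4.68, while those of the other 4 members moved by less than the replicate spread. The authors' deposited table, which holds no column for WT replicate 2, gives BT2 a 25.6-fold change. Among the genes with a value there, BT2 has rank 21 from the highest.

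tiny124 was compared with WT to describe the family in the triple mutant. Here too BT1, BT2, BT4 and BT5 had every tiny124 library above every WT library, a pattern of 8.23% of all tested genes in that direction, and the pattern in both lines at once was shown by 4.38%. The log2 fold change of BT2 was 3.13 ± 0.285 (8.76-fold), the fourth highest of all genes tested. BT5 stood at 1.95 ± 0.197 (3.86-fold), BT1 at 1.69 ± 0.217 (3.23-fold) and BT4 at 1.23 ± 0.209 (2.35-fold). BT3 stood at -0.35 ± 0.313. Without WT replicate 2 the value of BT2 was 3.71. The authors' deposited table gives BT2 a 13.0-fold change in this comparison, with rank 35 from the highest among the genes with a value there. Both comparisons used the same WT libraries, so an unusual WT library moves both in the same direction.

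Set directly against each other, the lines differed in BT1 and BT2. The TINYOE libraries of both genes lay above the tiny124 libraries, a pattern that 15.5% of all tested genes showed in that direction. The log2 fold change of TINYOE over tiny124 was 0.97 ± 0.256 for BT2 (1.96-fold) and 0.93 ± 0.209 for BT1 (1.91-fold). BT4 and BT5 stood at -0.09 ± 0.2 and -0.12 ± 0.18 with overlapping ranges, and their 95% intervals ran from -0.52 to 0.33 and from -0.50 to 0.26. For BT3 the value was 0.48 ± 0.305, with an interval from -0.16 to 1.13.

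**Figure D3:**
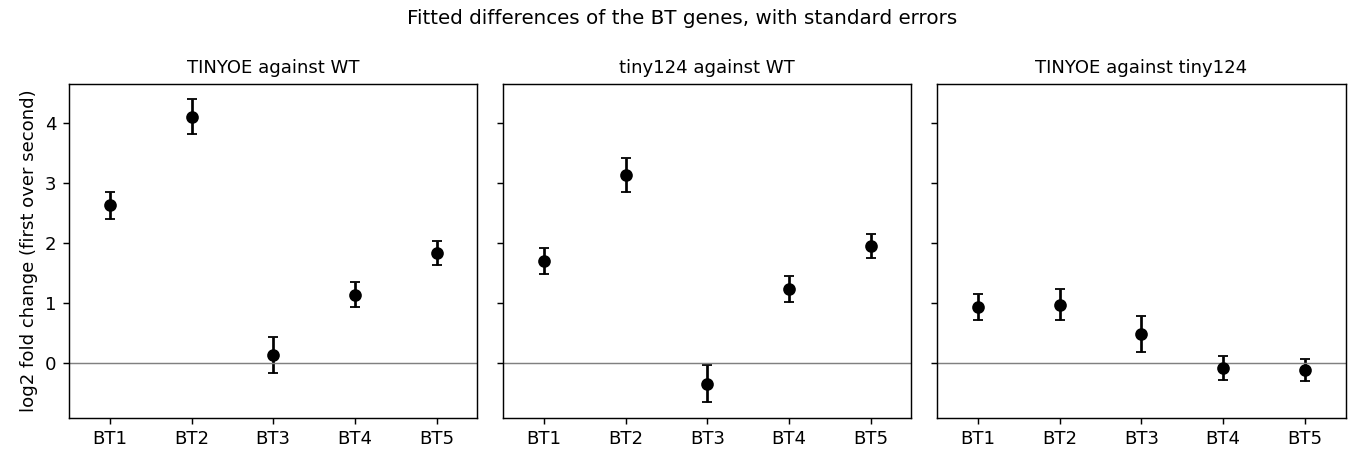
Fitted log2 fold changes of BT1 to BT5 with standard errors as bars, for TINYOE over WT, tiny124 over WT and TINYOE over tiny124. BT2 is highest against WT in both lines (4.10 and 3.13), and BT4 and BT5 lie near 0 between the lines (-0.09 and -0.12).

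Across the 9 libraries, the members fell into degrees of likeness. Profiles of log2 CPM were centred on each gene's own mean and compared by the root mean square difference in log2 units. BT4 and BT5 were the closest pair at 0.446, followed by BT1 and BT5 at 0.496. BT2 was nearest to BT1, at 0.774, and farthest from BT3, at 1.88, which reflects its wider range as well as its order.

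The genes outside the family with the profiles nearest to BT1 were SEN1, a gene induced by darkness (0.277), BZIP1, a transcription factor of the low-energy response (0.297), and DRM2, a dormancy-associated gene (0.308). SEN1 averaged 210 CPM in TINYOE, 78.6 in tiny124 and 24.4 in WT, and BZIP1 140, 82.6 and 30.3. All 3 also belong to the dark and sugar-starvation list described below. That list was chosen with earlier results of these data known, so the match is a description only. Nearest to BT2, at larger distances because few genes spanned its range, were AT2G20670 (0.653), SEN1 (0.69), AT1G80440 (0.709), AT3G07350 (0.758), AT1G25400 (0.817) and AT5G21940 (0.825). AT2G20670, annotated with a domain of unknown function that AT3G07350 shares, averaged 542 CPM in TINYOE, 371 in tiny124 and 82 in WT. AT1G80440 is KMD1, a kelch-repeat F-box gene, and lies in a run of genes at the end of chromosome 1 that was higher in TINYOE as a block (median log2 fold change 0.92 over 193 tested genes). No BT gene lies in that run. Without WT replicate 2 these 6 genes were again the nearest to BT2, and with a prior count of 0.5 in place of 2 all but 1 of them were.

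For BT4 the nearest profiles were those of AT2G25735 (0.121), the thioredoxin gene ACHT5 (0.142) and EXL2, an EXORDIUM-like gene (0.142). EXL2 averaged 239 CPM in TINYOE, 270 in tiny124 and 119 in WT. For BT5 they were AT1G02660, an alpha/beta-hydrolase gene (0.192), the RING zinc-finger gene RZPF34 (AT5G22920, 0.24) and AT4G32480 (0.256). RZPF34 averaged 277 CPM in TINYOE, 287 in tiny124 and 101 in WT, level in the lines as BT5 was. BT3 was nearest to the cytochrome gene CB5-D (0.146), AT2G40770 (0.155) and AT3G01590 (0.159), and CB5-D averaged 372 CPM in TINYOE, 318 in tiny124 and 368 in WT. The root mean square of BT3 around its own mean was only 0.328, beside 1.84 for BT2. Distances are not scaled by this range, so the small values of BT3 do not show a closer likeness.

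The genes that adjoin the members in the reference annotation did not pass the test where they could be tested. AT5G63150, beside BT1, averaged 14.8 CPM in TINYOE and 15.6 in WT (log2 fold change -0.07, adjusted p = 0.818). CEP3, a cysteine endopeptidase gene beside BT2, averaged 4.32 CPM in TINYOE, 10.6 in tiny124 and 6.67 in WT, with log2 fold changes of -0.63 (adjusted p = 0.173) and 0.65 (adjusted p = 0.354) against WT. FH6, beside BT4, stood at -0.10 in TINYOE (adjusted p = 0.851) and 0.24 in tiny124 (adjusted p = 0.848), and CYCD5;1, a cyclin gene beside BT5, at -0.49 in both lines (adjusted p = 0.154 and 0.426). AT4G37608, on the other side of BT5, stood at 0.83 in TINYOE (adjusted p = 0.348) and 0.24 in tiny124 (adjusted p = 0.943). The other 5 adjoining genes had too few counts to be tested, with at most 24 over all libraries. BT4 and BT5 each lie near a gene of the LBD37 to LBD39 group of nitrate-induced repressors, with 7 genes of the count table between LBD37 and BT4 and 6 between LBD39 and BT5.

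Genes known to work with the BT proteins were called about as often as all genes in TINYOE. Of 14 loci of the partner list, 12 were tested, and the test was edgeR's quasi-likelihood test with adjustment over all 16434 genes. In TINYOE against WT 1 rose and 1 fell, where 8.15% of all genes were called higher and 7.44% lower. BET10, the bromodomain partner, averaged 47.6 ± 8.26 CPM in TINYOE and 29.5 ± 8.63 in WT (SD, n = 3 each, log2 fold change 0.69 ± 0.214, adjusted p = 0.0378). CAM7, a calmodulin gene with close copies whose counts are uncertain for that reason, averaged 107 ± 9.33 CPM in TINYOE and 160 ± 41.9 in WT (-0.58, adjusted p = 0.0461). Both calls were lost without any 1 of the 3 TINYOE libraries, without WT replicate 1 and without WT replicate 3, and that of CAM7 also without any 1 tiny124 library. In tiny124 against WT edgeR and DESeq2 called 0 of the 12, where edgeR called 1.75% of all genes higher and 0.755% lower, and 0 had an unadjusted p under 0.05. The lowest unadjusted p there was 0.197, of CAM1, with a log2 fold change of 0.22 (adjusted p = 0.695).

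The CUL3 subunits did not pass the test in any comparison. CUL3A stood at 10.9, 14.2 and 11.1 CPM in TINYOE, 14.9, 10.7 and 14.2 in tiny124 and 20.3, 15 and 13.2 in WT. BET9 stood at 52.2 to 63.2 CPM in TINYOE, 43.9 to 63.6 in tiny124 and 47.3 to 61 in WT, with all ranges overlapping. TAC1, the known activator of BT2, had 0 counts in all 9 libraries, and TERT, the telomerase subunit, had 3 counts in TINYOE replicate 1 and 0 elsewhere. A count of 0 allows a level of up to 0.494 to 0.635 CPM in a library (3 counts, counting error only). Between the lines, BET10 was higher in TINYOE (0.73, adjusted p = 0.0383) and CAM2 lower (-0.57, adjusted p = 0.0254), calls that were each lost without any 1 library of either line, and for BET10 also without WT replicate 3.

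Other proteins with a BTB or a TAZ domain were set beside the family for comparison. Of 16 tested genes 3 rose and 1 fell in TINYOE against WT, beside 8.15% and 7.44% of all genes. NPR3, a salicylate receptor that acts as a CUL3 adaptor, stood at 32.4, 31.7 and 34.3 CPM in TINYOE and 19.7, 19.1 and 16.3 in WT (log2 fold change 0.84 ± 0.174, adjusted p = 0.00398), and its call held in all 15 alternatives. BPM2, a MATH-BTB adaptor, averaged 37.5 CPM in TINYOE and 19.6 in WT (0.94, adjusted p = 0.0268). ETO1, an adaptor for enzymes of ethylene synthesis, averaged 8.1 CPM in TINYOE and 17.3 in WT (-1.10, adjusted p = 0.0217). The call of BPM2 was lost without any 1 TINYOE library, WT replicate 1 or WT replicate 3, and that of ETO1 without TINYOE replicate 1 or WT replicate 1. HAC1, a TAZ-domain acetyltransferase, averaged 23.3 CPM in TINYOE, 13.4 in tiny124 and 14.5 in WT, and rose in TINYOE against WT (0.67, adjusted p = 0.0424) and against tiny124 (0.79, adjusted p = 0.026). HAC1 lies in the run at the end of chromosome 1, and its call against WT was lost with DESeq2 and without any 1 TINYOE library, tiny124 replicate 1, WT replicate 1 or WT replicate 2. That against tiny124 was lost without any 1 TINYOE library, tiny124 replicate 1 or tiny124 replicate 2. In tiny124 against WT edgeR and DESeq2 called 0 of the 16, beside edgeR's 1.75% higher and 0.755% lower of all genes, and 2 had an unadjusted p under 0.05. BPM2 had the lowest unadjusted p, 0.0194, with a log2 fold change of 0.71 (adjusted p = 0.267, range 0.0368 to 0.67 over the alternatives).

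Nitrate genes, which BT2 both responds to and acts on, were called in both directions in TINYOE. Of 18 tested genes 4 rose and 3 fell, beside 8.15% and 7.44% of all genes. Among those that fell was NRT1.1, the transporter and sensor of nitrate, at 46.4, 52.2 and 47.5 CPM in TINYOE and 108, 150 and 131 in WT (log2 fold change -1.41 ± 0.167, adjusted p = 4.46e-05). NRT1.5, known for loading nitrate into root xylem, averaged 3.18 ± 0.648 CPM in TINYOE and 19.9 ± 4.2 in WT (6.23-fold lower, adjusted p = 1.02e-05), and NIR1, nitrite reductase, 138 and 197 CPM (1.43-fold lower, adjusted p = 0.0382). All 3 repressors of the LBD group rose, with LBD38 at 66.5, 52.2 and 54.7 CPM in TINYOE and 12.5, 23.5 and 18.9 in WT (1.66 ± 0.213, adjusted p = 1e-04). LBD37, near BT4, averaged 97.9 CPM in TINYOE and 47.8 in WT (2.05-fold, adjusted p = 0.000547), and LBD39, near BT5, 30.5 and 16.7 CPM (1.82-fold, adjusted p = 0.00522). The fourth, NRT1.7, a transporter of source leaves, averaged 26.3 CPM in TINYOE and 13.3 in WT (0.99, adjusted p = 0.0491). The calls of NIR1 and NRT1.7 were each lost without 5 of the 9 libraries: TINYOE replicate 3, tiny124 replicates 1 and 2, and either TINYOE replicate 2 and WT replicate 3 (NIR1) or TINYOE replicate 1 and WT replicate 1 (NRT1.7).

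In tiny124 against WT LBD38 (34.8 and 18.3 CPM, 0.93, adjusted p = 0.029) and LBD37 (76.1 and 47.8 CPM, 0.67, adjusted p = 0.0411) rose, where 1.75% of all genes were called higher and 0.755% lower. Both calls were lost without any 1 tiny124 library, WT replicate 1 or WT replicate 3, and that of LBD37 also without any 1 TINYOE library. LBD38 and LBD39 were also higher in TINYOE than in tiny124 (0.73 and 0.81, adjusted p = 0.03 and 0.00954), and NRT1.1 and NRT1.5 lower (-0.91 and -2.14, adjusted p = 0.00191 and 6.38e-05), where 5.12% of all genes were called higher and 4.73% lower. The call of LBD38 between the lines was lost without any 1 library of either line, and that of LBD39 without TINYOE replicate 2 or tiny124 replicate 3. Of the NRT2 family of nitrate transporters, which includes genes that BT2 is known to restrain, NRT2.1 stood at 1.05 to 2.14 CPM in TINYOE, 0.827 to 1.69 in tiny124 and 0.57 to 2.02 in WT and was too low to be tested, as were NRT2.2, NRT2.4, NRT2.5 and NRT2.6. Among these NRT2.5 had 6, 6 and 5 counts in TINYOE, 1, 0 and 0 in tiny124 and 0, 0 and 2 in WT, with every TINYOE library above the others, while the ranges of NRT2.6 overlapped and NRT2.2 and NRT2.4 had at most 1 count in any library.

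The dark and sugar-starvation list held the most calls of the 5 lists in both lines against WT. It joins genes known to be raised in darkness or repressed by sugar, as BT2 is, with genes of sugar signalling that are not of that kind, among them the kinase subunits KIN10 and KIN11 and the sugar-induced genes GPT2 and TPS5. Of 23 tested genes 16 rose and 1 fell in TINYOE against WT, beside 8.15% and 7.44% of all genes, with a median log2 fold change of 0.93 beside 0.00 over all genes. Without WT replicate 2 the counts were 15 and 3. All 5 lists were chosen with earlier results of these data known, so their counts describe the lists and are no independent support. SEN1 stood at 189, 242 and 199 CPM in TINYOE and 24.3, 31.3 and 17.6 in WT (3.11 ± 0.22, adjusted p = 1.12e-06). BGAL4, a beta-galactosidase gene, averaged 17.9 CPM in TINYOE and 3.03 in WT (5.96-fold, adjusted p = 6.9e-05), and BZIP1 140 and 30.3 CPM (4.61-fold, adjusted p = 2.59e-06). ASN1, which makes asparagine for nitrogen transport, rose 3.96-fold (adjusted p = 3.13e-05), DIN10 2.76-fold (adjusted p = 0.000154) and STP1, a hexose importer, 2.5-fold (adjusted p = 0.000197). Their calls held in all 15 alternatives. TPS5, a trehalose phosphate synthase gene, fell 2.24-fold (adjusted p = 0.0123), a call lost without TINYOE replicate 2 or WT replicate 3, while TPS8, TPS9, TPS10 and TPS11 rose by 1.66-fold to 2.11-fold (adjusted p from 0.00248 to 0.022). The call of TPS8 was lost without TINYOE replicate 1, and that of TPS10 without TINYOE replicate 2 or WT replicate 3.

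In tiny124 against WT 11 of the 23 genes rose and 0 fell, beside 1.75% and 0.755% of all genes, with a median of 0.81 beside -0.01 over all genes. ASN1 averaged 40.9 ± 9.36 CPM in tiny124 and 12.5 ± 1.26 in WT (log2 fold change 1.71 ± 0.225, adjusted p = 0.000464), SEN1 78.6 and 24.4 CPM (1.69, adjusted p = 0.000357) and BZIP1 82.6 and 30.3 CPM (1.45, adjusted p = 0.00024). The count was 6 without tiny124 replicate 3 and 6 without WT replicate 3. In TINYOE against tiny124 4 genes rose, beside 5.12% of all genes: SEN1 (1.42, adjusted p = 0.000274), BGAL4 (1.24, adjusted p = 0.00852), DRM2 (0.82, adjusted p = 0.0162) and BZIP1 (0.76, adjusted p = 0.00732), and the call of DRM2 was lost without TINYOE replicate 2, tiny124 replicate 1 or tiny124 replicate 2. SEN1, DRM2, BZIP1 and BGAL4 were thus called in all 3 comparisons, in the order of BT1 and BT2. For BGAL4 the call in tiny124 against WT (adjusted p = 0.0495) was lost in 10 of 15 alternatives. The order was not particular to this list, since LBD38 of the nitrate list was called in the same way. ASN1, at 49.4 CPM in TINYOE and 40.9 in tiny124, did not pass the test between the lines.

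**Figure D4:**
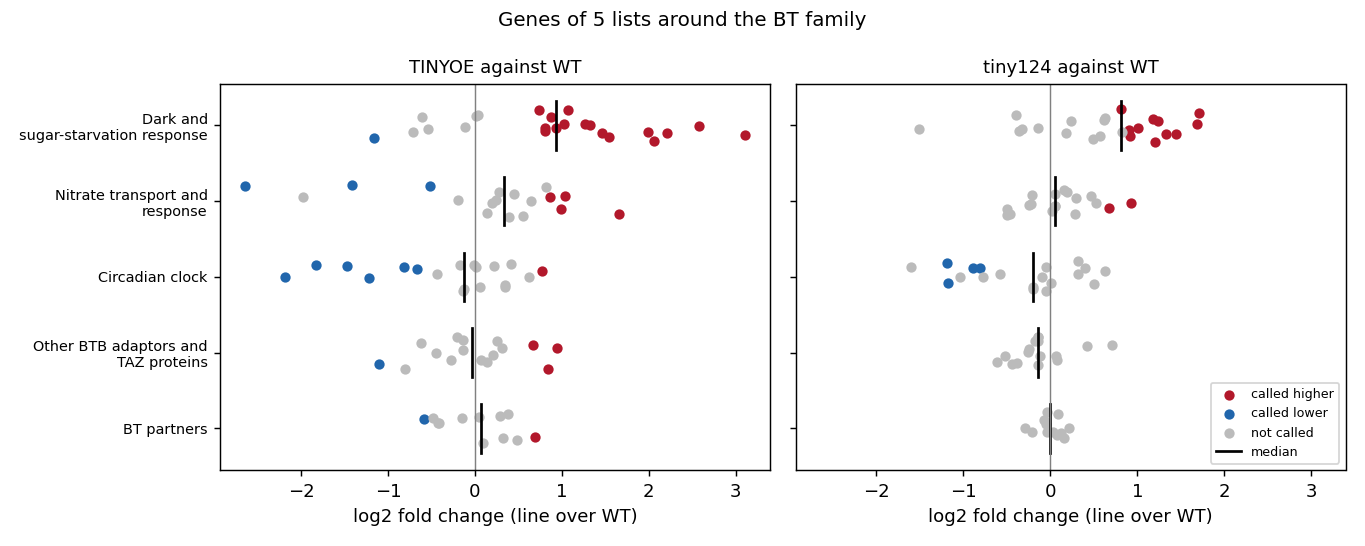
Log2 fold changes of the tested genes of 5 lists in TINYOE and tiny124, each over WT, with genes called by edgeR in colour, other genes in grey and the list median as a bar. The dark and sugar-starvation list has 16 genes called higher in TINYOE and 11 in tiny124, with medians of 0.93 and 0.81.

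Clock genes were examined because BT2 follows the daily cycle. Of 19 tested genes 6 fell and 1 rose in TINYOE against WT, beside 7.44% and 8.15% of all genes. Without WT replicate 2 the counts were 5 and 3. The 6 that fell were CCA1, LHY, PRR9, LNK1, LNK2 and LNK3, known for expression in the morning. The fall did not extend to the whole list, since 12 tested genes did not pass the test. Among these 12 were RVE4 (0.35, adjusted p = 0.234), RVE8 (-0.13, adjusted p = 0.687), RVE1 (-0.13, adjusted p = 0.766) and PRR7 (0.02, adjusted p = 0.955). The call of CCA1 (adjusted p = 0.0382) was lost without TINYOE replicate 2 or 3, tiny124 replicate 1, or WT replicate 2 or 3, and that of LNK2 (adjusted p = 0.0135) without TINYOE replicate 3. LHY, a morning repressor, stood at 30.8, 39.1 and 28.4 CPM in TINYOE, 47.4, 35.6 and 70.8 in tiny124 and 139, 76 and 133 in WT, 3.55-fold lower in TINYOE (adjusted p = 0.000246) and 2.27-fold lower in tiny124 (adjusted p = 0.0206, lost without tiny124 replicate 1, tiny124 replicate 2 or WT replicate 3). LNK3 and LNK1, coactivators of the morning phase, fell 2.77-fold (adjusted p = 0.000215) and 2.32-fold (adjusted p = 0.000543) in TINYOE. PRR9 averaged 0.618 CPM in TINYOE and 2.91 in WT (4.54-fold lower, adjusted p = 0.00599). The 1 gene that rose, LUX (0.77, adjusted p = 0.0451), lost its call without any 1 library other than WT replicate 2, without a filter and with DESeq2.

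In tiny124 against WT 4 clock genes fell and 0 rose, beside 0.755% and 1.75% of all genes. LNK3 averaged 17 CPM in tiny124 and 38.9 in WT (-1.19, adjusted p = 0.00475), and CCA1, the partner of LHY, 18 and 33.2 CPM (-0.89, adjusted p = 0.0314, lost without any 1 tiny124 library or WT replicate 3). The count was 1 without tiny124 replicate 1 or 2 or WT replicate 3, and 2 without tiny124 replicate 3. Between TINYOE and tiny124 edgeR and DESeq2 called 0 of 19 clock genes, 4 had an unadjusted p under 0.05, and the lowest, 0.0108, belonged to RVE4 (log2 fold change 0.56, adjusted p = 0.0838). The part of the clock difference in the levels of the BT genes was not tested.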

How the data were processed

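The deposited counts are whole reads per gene from 3′ tag libraries made with about 500 ng of RNA and read as 50 nt single reads. Trimming and mapping to TAIR10 used BlueBee's QuantSeq FWD pipeline (Lexogen, 2.2.2), per the series' design text, and no aligner or annotation is named. A further 2 deposited tables hold DESeq2 output on 8 libraries, without WT replicate 2: per the file headers, a ratio (fold change), its log2 value, p-values, and normalized counts and dispersions, used here as scores. From them the fold change of BT2 and its rank were taken.

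The 9 libraries entered 1 edgeR quasi-likelihood fit (edgeR 4.0.16, R 4.3.3) with TMM scaling and no term but genotype, which left 6 residual degrees of freedom. filterByExpr kept 16434 genes, and those dropped held 0.296% of counts. Tests were two-sided with Benjamini-Hochberg adjustment over all genes kept and a threshold of 0.05. The fit was tested on data simulated with the same spread in all libraries and with changes in TINYOE only. That does not cover genotypes of unequal spread. Symbols and gene order came from the TAIR10.1 annotation, another release, so no coordinates are given. The BT genes and the 5 lists, with 100 loci, were chosen with earlier results of these data known. The rule for named genes took the 5 members, up to 3 called genes of at least 5 CPM per list and comparison (or the gene of lowest p), the genes nearest in profile (6 for BT2, 3 for each other member) and the adjoining genes. Other list genes were named after their values were seen. Alternatives were DESeq2 1.42.0, its size factors in edgeR, no filter, at least 5 CPM in 3 libraries, 6 libraries only, the replicate block, and each library left out.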

Additional observations from a re-analysis of the deposited data

How the results depend on the processing

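The log2 fold changes of BT1, BT3, BT4 and BT5 moved by less than the replicate spread in all 15 alternatives and all 3 comparisons, although BT3 in TINYOE against WT, between -0.05 and 0.41, and BT4 in TINYOE against tiny124, between -0.24 and 0.03, crossed 0. BT2 ranged from 3.87 to 4.68 in TINYOE against WT and from 2.90 to 3.71 in tiny124 against WT with single libraries left out, both at their highest without WT replicate 2, and from 0.90 to 1.11 between the lines. With single libraries left out, BT1 ranged from 2.49 to 2.84, 1.44 to 1.91 and 0.80 to 1.19 in these 3 comparisons, and BT5 from 1.67 to 1.97, 1.79 to 2.09 and -0.21 to -0.05.

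Counts of called genes moved more as single libraries were left out. In TINYOE against WT 868 to 2141 genes were higher and 712 to 1891 lower, both at their highest without WT replicate 2, in tiny124 against WT 129 to 375 and 34 to 151, and in TINYOE against tiny124 481 to 1131 and 461 to 1074. For tiny124 against WT, no filter gave 488 higher and 218 lower genes, and the 6 libraries alone gave 81 lower genes. The 6 libraries alone gave 1167 lower genes in TINYOE against tiny124. With the replicate block, 75 genes were lower in tiny124 against WT, in place of 124. Of the calls given above with their p-values, 6 libraries alone lost BET10, CAM7, HAC1, NIR1, NRT1.7, CCA1 and LUX in TINYOE against WT. They also lost LBD37, LBD38 and BGAL4 in tiny124 against WT. The replicate block lost CAM7, NIR1, NRT1.7, CCA1 and LUX in TINYOE against WT. It also lost LBD37, LBD38, CCA1 and BGAL4 in tiny124 against WT, and CAM2 and LBD38 between the lines. The numbers do not show a pairing: of 9 pairs of libraries with the same number, 2 had deviations correlated above 0.1 (r from -0.307 to 0.36), and 3 of 9 libraries correlated best with their own number. Pairs with different numbers ran from -0.415 (tiny124 replicate 3 with WT replicate 2) to 0.44 (tiny124 replicate 3 with WT replicate 1). What libraries of different genotypes share was not tested. The cause of the other changes was not tested. Depth limits BT3, TAC1, TERT and the NRT2 genes.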
